A study of Mus musculus with 15 samples.

Results

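The mitochondrial ribosomal protein genes of mouse were taken as every row of the deposited expression table whose symbol starts with Mrpl or Mrps followed by a number, leaving out symbols that contain -ps, which mark pseudogenes. This gave 76 genes of the 34372 in the table, 47 Mrpl and 29 Mrps, and 4 pseudogene symbols were left out. By the proteins' current names, 49 of the genes encode proteins of the large subunit and 26 proteins of the small subunit. Mrps30 (mL65) and Mrps18a (mL66) are counted with the large subunit, where their proteins sit. Mrps36 carries the prefix but encodes KGD4, a protein of the 2-oxoglutarate dehydrogenase complex, and belongs to neither subunit. By the same names, 46 of the 75 ribosomal proteins are classed as having a bacterial counterpart and 29 as specific to mitochondria.

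RNA was measured in 15 libraries of mouse pluripotent cells, 9 from embryonic germ cells (EGC), which are lines derived from primordial germ cells, and 6 from embryonic stem cells (ESC), which are lines derived from the early embryo. The header of the table divides them into 6 labels, with a blank cell taken to continue the label before it. EGC 7 and EGC 9 are E11.5 XX EGC, EGC 8 alone is E11.5 XO EGC, EGC 4 to EGC 6 are E11.5 XY EGC, and EGC 1 to EGC 3 are E12.5 XY EGC, where E11.5 and E12.5 are the embryonic days of the germ cells. ESC 1 to ESC 3 are XX ESC and ESC 4 to ESC 6 are XY ESC. All lines shared derivation in 2i-LIF medium, later growth with serum and LIF on mouse embryonic fibroblast feeders, sorting for the surface antigen SSEA1, and passage 6. No strain, transgene or other genotype is stated, and nothing says whether libraries under a label came from separate lines or were clones of 1 line, so the p-values below measure only the spread between these libraries.

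The mitochondrial ribosome, or mitoribosome, translates the few proteins encoded by mitochondrial DNA, which are all core parts of the respiratory chain and the ATP synthase. Its ribosomal RNAs come from mitochondrial DNA, but all of its proteins are encoded in the nucleus, made in the cytosol and imported. Mitoribosomal proteins named with u or b have a counterpart in the bacterial ribosome. Those named with m are classed as specific to mitochondrial ribosomes, which does not mean that they lack any bacterial relative. ESC rely strongly on glycolysis, and their mitochondria are small and have few cristae, yet mitoribosomal genes are needed for embryos to develop.

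Values were deposited as TPM, a level per transcript length that sums to 1000000 in each library. Without read counts the sequencing depth is unknown, and no counting interval is given. The number of genes with at least 1 TPM was 12498 to 13041 per library. Markers of pluripotent cells were high in every library, with Pou5f1 at 1024 to 1714 TPM and Nanog at 419 to 943 TPM. Summed over 10 markers of fibroblasts, the feeder cell type, levels were 90.8 to 178 TPM, most of it Vim, with Col1a1 at 1.07 to 12.8 TPM. The more specific fibroblast marker Dcn reached 6.48 TPM in EGC 4 and at most 0.146 TPM elsewhere, and Lum was at most 0.936 TPM in every library.

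All 76 genes had at least 1 TPM in all 15 libraries. Their mean levels ran from 10.4 TPM for Mrpl23 to 236 TPM for Mrpl42, with a median of 61.3 TPM, and 57 of them lay between 30 and 120 TPM. The highest were Mrpl42 (mL42), Mrpl17 (bL17m, a protein near the exit of the peptide tunnel in bacteria), Mrpl15 (uL15m), Mrpl52 (mL52), Mrpl24 (uL24m) and Mrps5 (uS5m), with means of 170.3 to 236 TPM. The lowest were Mrpl23 (uL23m), Mrpl35 (bL35m) at 16.6 TPM, Mrpl46 (mL46) at 23.5 TPM and Mrps11 (uS11m) at 24.1 TPM. The order of the genes by level was much the same in every library, with Spearman's rho over the 76 genes of 0.900 to 0.993 between any pair of libraries, a description across genes that share the same libraries.

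The genes varied little between libraries. The median SD of log2(TPM + 1) over the 15 libraries was 0.181 for the 76 genes and 0.246 for all genes tested. Of the 76, 65 lay below that median, but the tested genes were not matched to them on level. The median SD was 0.177 for cytosolic ribosomal protein genes, 0.178 for mitochondrial translation factors and 0.157 for markers of mitochondrial mass. It was 0.299 for mitochondrially encoded RNAs. A small spread was thus not particular to the 76 genes. The highest library exceeded the lowest by a median of 1.51-fold, and by at least 2-fold in 5 genes. Mrpl44 (mL44, which has a fold like RNase III) was the steadiest, at 33.1 to 37.6 TPM in all libraries, followed by Mrpl30, Mrpl45 and Mrpl48. Mrpl23, Mrpl55, Mrpl32 and Mrpl20 had the widest spread.

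The summed level of the 76 genes took 0.507% to 0.609% of all TPM. It was 5820 and 6092 TPM in the E11.5 XX EGC libraries and 6007 TPM in the XO library. In E11.5 XY EGC it was 5074 to 5465 TPM, and in E12.5 XY EGC 5113 to 5473 TPM. XY ESC had 5335 to 5713 TPM and XX ESC 5287 to 5865 TPM. The E11.5 XX EGC and XO libraries were thus above every E11.5 and E12.5 XY EGC library, while the ranges of XX and XY ESC overlapped. Both subunits followed this order, with large subunit sums of 3861 and 4007 TPM in E11.5 XX EGC against 3369 to 3643 TPM in E11.5 XY EGC, and small subunit sums of 1869 and 1995 TPM against 1619 to 1739 TPM. The 80 cytosolic ribosomal protein genes, for comparison, took 16.1% to 19.6% of all TPM. A sum in bulk RNA cannot tell fewer cells of a type from less RNA per cell.

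**Figure D1:**
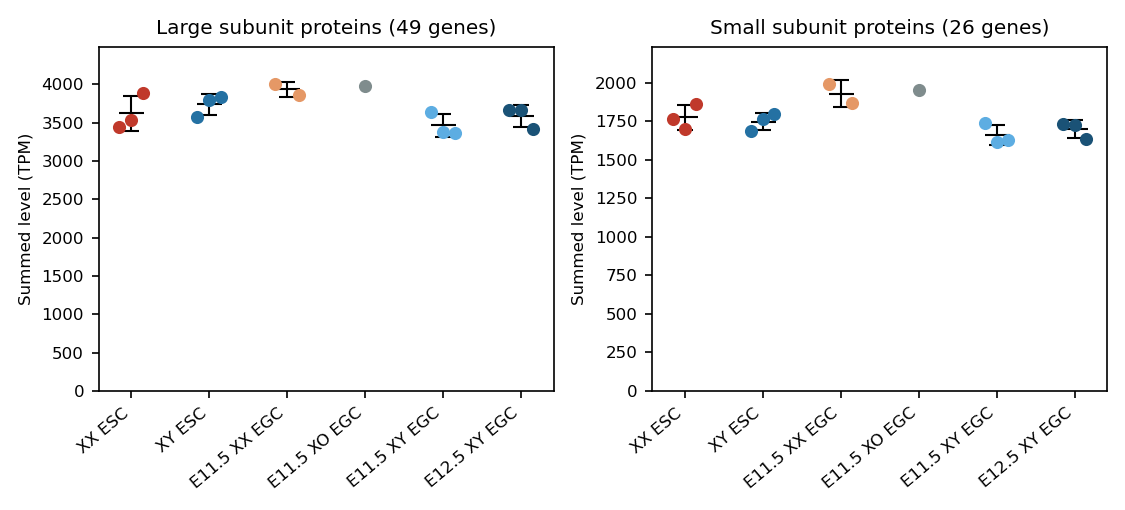
Summed level in TPM (vertical axis, from 0) of the 49 large subunit genes (left) and the 26 small subunit genes (right) for each header label. Points are libraries, and bars show the mean and SD where a label has more than 1 library. The E11.5 XX EGC and XO libraries lie above all XY EGC libraries in both panels.

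The heatmap of all ribosomal members shows the same genes by library. Most rows were warm in EGC 7, EGC 9 and EGC 8 and cool in EGC 4 to 6. A few rows ran the other way, with Mrpl23 at the foot of the large subunit and Mrps10 at the foot of the small subunit. Single dark cells in the column of ESC 3 mark genes on chromosome 13.

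**Figure D2:**
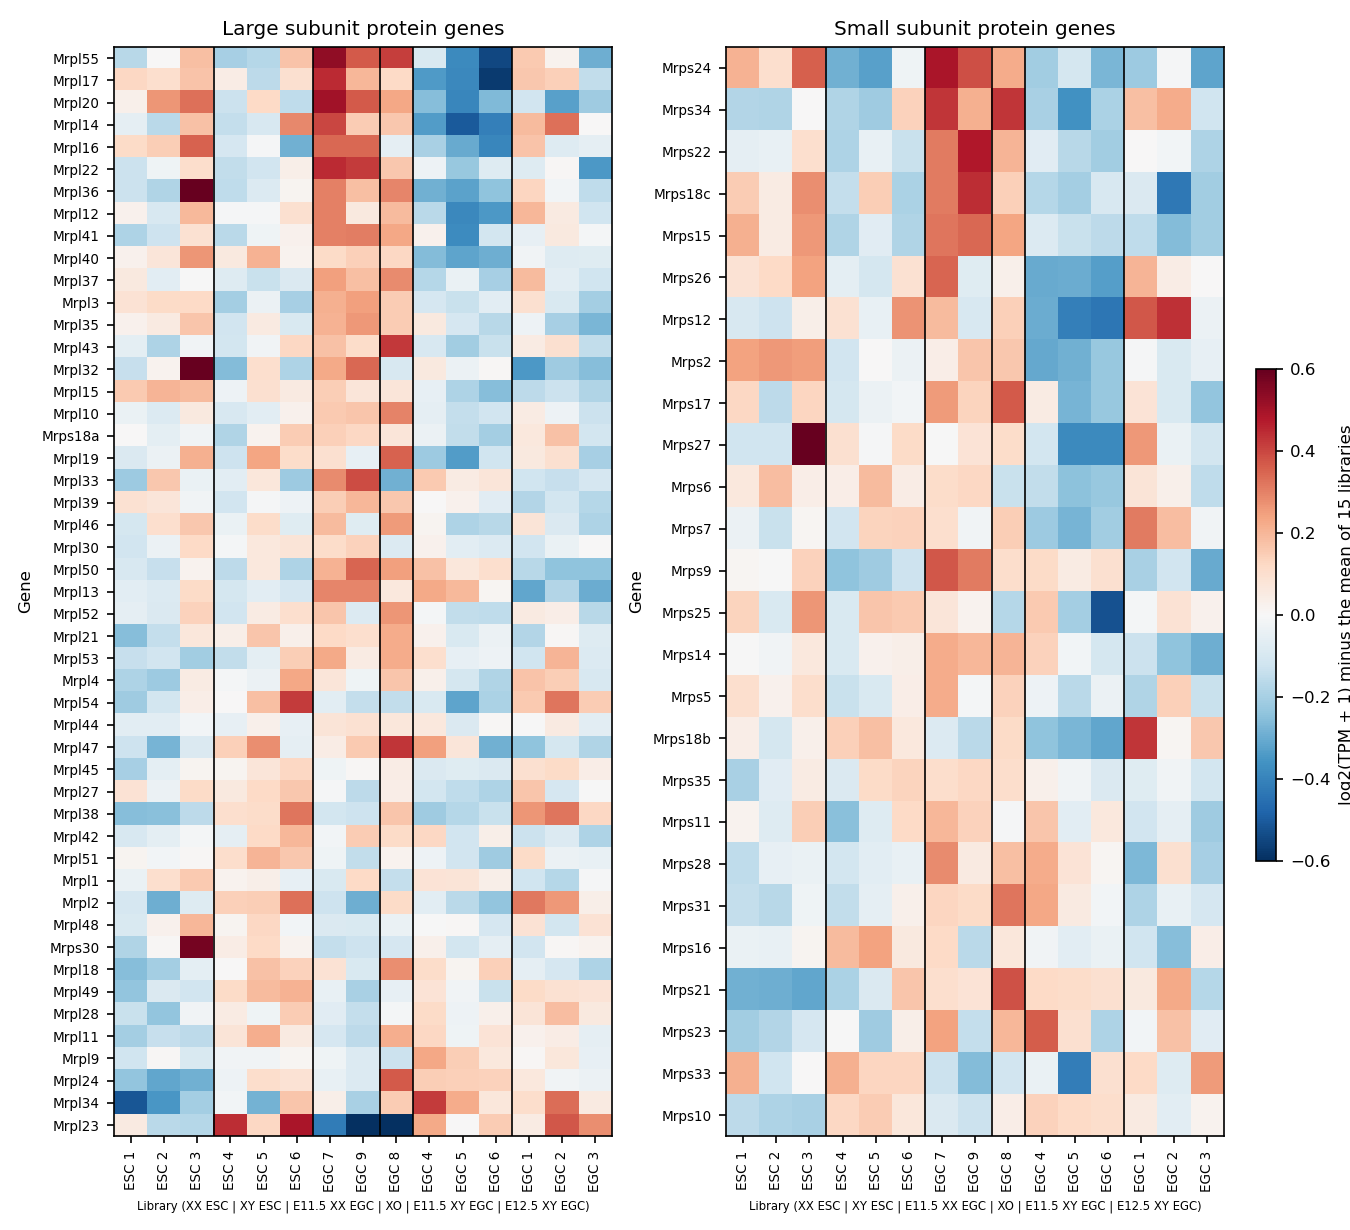
Each cell is log2(TPM + 1) of a gene in a library minus that gene's mean over 15 libraries, with colours ending at 0.6 in either direction. Rows are the 49 large subunit genes (left) and 26 small subunit genes (right), ordered by the E11.5 XX minus XY EGC difference, and vertical lines separate the header labels. Mrps36 is not drawn because its protein is not ribosomal.

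The library ESC 3 stood apart for genes on chromosome 13, which bears on every value of the XX ESC label. The 76 genes lie on 17 chromosomes, most of them on chromosomes 11 (10 genes), 17 (8 genes) and 6 (7 genes), and none on X, Y, 12 or 18. Those on chromosome 13 are Mrpl32 (bL32m, which binds zinc), Mrpl36 (bL36m), Mrps27 (mS27, a pentatricopeptide repeat protein), Mrps30 and Mrps36. Mrpl32 was at 115.5 TPM in ESC 3, against 61.3 and 68.5 TPM in ESC 1 and 2 and 52.9 to 85.9 TPM in all other libraries. Mrps30 was at 109.8 TPM in ESC 3 against 64.8 to 79.9 TPM elsewhere, and Mrps27 at 48.2 TPM against 23.8 to 37.8 TPM. Mrpl36 (74.3 TPM) and Mrps36 (119 TPM) were likewise highest in ESC 3, so that all 5 had their highest value of 15 libraries there, as did 5 of the 71 other members.

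On the log2(TPM + 1) scale the 5 genes were 0.66 to 0.82 above the mean of ESC 1 and 2, with a median of 0.72. The 71 other members differed by -0.12 to 0.28, with a median of 0.13. Over all 501 tested genes of chromosome 13 the median was 0.42, and the medians of the other chromosomes were -0.11 to -0.05. The summed level of the 5 genes was 467 TPM in ESC 3 and 266 to 331 TPM in the other 14 libraries. Without them, the summed level in XX ESC was 5015 to 5398 TPM. None of the 5 passed the test between XX and XY ESC.

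**Figure D3:**
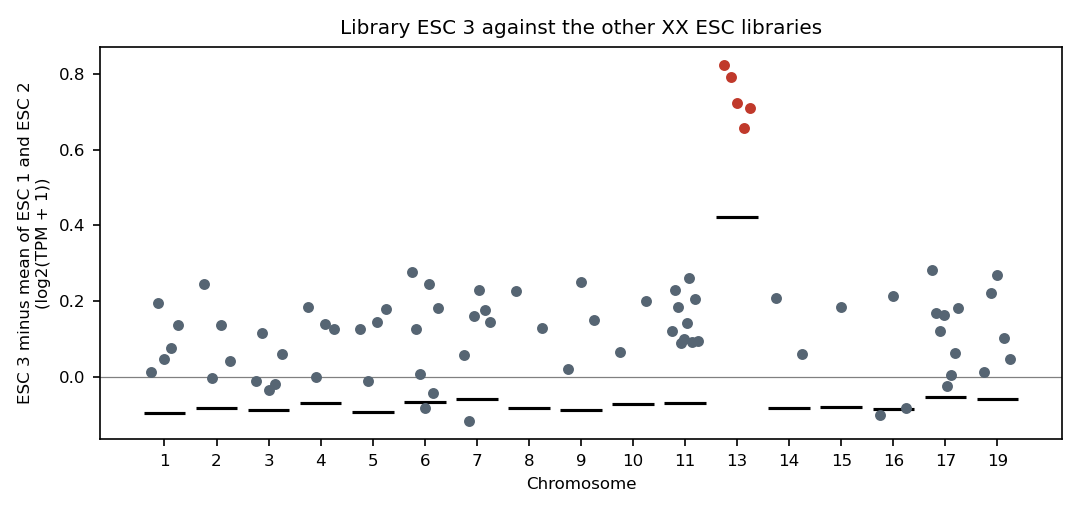
Difference in log2(TPM + 1) between the XX ESC library ESC 3 and the mean of ESC 1 and 2 (vertical axis) for each of the 76 genes (points), by chromosome (horizontal axis), with chromosome 13 in red. Black bars are medians over all tested genes of the chromosome. The 5 genes on chromosome 13 lie between 0.66 and 0.82, above all others.

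Promoter sequences are shown for 4 of the genes that differed most between labels, because nuclear genes for mitochondrial proteins are known to carry sites for the factors NRF1, GABP (an ETS factor) and YY1. The RefSeq table for GRCm38.p6 gives 250 bases before to 50 bases after the start for 67 of the 76 genes. Capitals mark matches to the ETS motif CCGGAAG, the NRF1 motif (GCGCA and GCGC with any 1 base between) or the YY1 motif AAGATGGCG, searched on both strands, and each sequence reads 5′ to 3′ on the gene's own strand. Mrpl17 lies on the minus strand at chr7:105811038-105811337, Mrpl14 on the plus strand at chr17:45686099-45686398, Mrps12 on the minus strand at chr7:28741772-28742071 and Mrps24 on the minus strand at chr11:5707652-5707951.
Mrpl17: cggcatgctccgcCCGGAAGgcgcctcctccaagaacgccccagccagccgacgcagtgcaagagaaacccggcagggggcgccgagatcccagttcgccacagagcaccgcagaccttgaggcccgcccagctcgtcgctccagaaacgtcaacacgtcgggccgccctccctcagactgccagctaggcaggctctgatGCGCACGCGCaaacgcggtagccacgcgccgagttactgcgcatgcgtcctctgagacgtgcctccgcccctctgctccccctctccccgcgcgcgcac
Mrpl14: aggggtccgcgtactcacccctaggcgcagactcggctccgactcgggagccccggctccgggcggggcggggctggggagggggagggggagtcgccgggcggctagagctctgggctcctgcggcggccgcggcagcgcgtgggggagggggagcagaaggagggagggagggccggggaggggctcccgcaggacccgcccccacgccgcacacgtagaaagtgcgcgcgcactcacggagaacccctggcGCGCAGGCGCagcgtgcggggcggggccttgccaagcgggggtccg
Mrps12: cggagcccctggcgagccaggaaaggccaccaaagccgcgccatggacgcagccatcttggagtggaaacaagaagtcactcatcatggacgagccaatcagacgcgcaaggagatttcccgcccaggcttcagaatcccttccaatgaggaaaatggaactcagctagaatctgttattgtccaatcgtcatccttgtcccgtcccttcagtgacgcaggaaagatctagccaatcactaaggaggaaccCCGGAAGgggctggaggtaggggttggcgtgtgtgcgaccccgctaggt
Mrps24: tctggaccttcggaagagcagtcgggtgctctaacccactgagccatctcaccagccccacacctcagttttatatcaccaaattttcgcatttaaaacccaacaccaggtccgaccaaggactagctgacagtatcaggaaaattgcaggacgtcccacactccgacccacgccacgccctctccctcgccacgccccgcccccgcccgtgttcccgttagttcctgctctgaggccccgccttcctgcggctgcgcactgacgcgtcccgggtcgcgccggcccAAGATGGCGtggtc
The ETS match of Mrpl17 starts 237 bases before the annotated start and its NRF1 match 49 bases before it, and the NRF1 match of Mrpl14, the ETS match of Mrps12 and the YY1 match of Mrps24 lie just after the start.

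Over the 67 promoters, 24 held the ETS motif (35.8%, against 19.5% of the 9306 tested genes with a promoter and 9.93% of all 27025), 12 the NRF1 motif (17.9% against 11.2% and 5.19%) and 8 the YY1 motif (11.9% against 3.35% and 1.64%). At least 1 of these 3 motifs was found in 39 members (58.2%, against 30.4% of tested genes). The E-box CACGTG, which the factor MYC can bind, was in 5 (7.46%, against 11.9% and 8.09%). Mrpl55, Mrpl16, Mrpl23, Mrpl24 and Mrps10, which also differed between labels, had no match to the ETS, NRF1 or YY1 letters in these windows. These counts are descriptions of letters in a window.

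Many of the genes start close to the start of a gene on the opposite strand. Such a protein-coding gene started within 500 bases, to either side, of 24 of the 76 (31.6%), against 13.2% of 11661 tested protein-coding genes. Pairs whose first exons overlap are included. The shortest distances between starts were 26 bases for Mrpl54 and Apba3 and 29 bases for Mrps18c and Helq, Mrpl36 and Ndufs6, and Mrps34 and Eme2. Exons of Mrpl36 and Ndufs6 overlap by 30 bases. Several partners also act in mitochondria, such as Ndufs6 (a subunit of complex I) and Sars2 (the mitochondrial seryl-tRNA synthetase), which starts 172 bases from Mrps12. Mrps11 and Mrpl46 form a pair of their own, with starts 412 bases apart.

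XX and XY EGC of stage E11.5 differed in 36 of the 76 genes, mostly in 1 direction. Differences were tested with limma on log2(TPM + 1) in 1 fit over the 13879 genes that reached 1 TPM in 2 or more libraries, and a gene is called when its Benjamini-Hochberg adjusted p is below 0.05. In XX EGC 31 genes were higher (40.8%) and 5 lower (6.58%), while over all tested genes 26.2% were higher and 23.4% lower. The remaining 40 did not pass the test. The median log2 fold change was 0.17 for the 76 genes and 0.02 for all tested genes, and 60 of the 76 had a positive value. In all 36 called genes the ranges of the libraries of the 2 labels did not overlap. Genes that pass the test with so few libraries tend to separate in this way, so this adds no further support. The share over all tested genes was not computed. Large subunit genes gave 18 higher and 4 lower calls, small subunit genes 13 and 1. Genes with bacterial counterparts gave 22 higher and 5 lower calls, and genes specific to mitochondria 9 and 0.

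Mrpl17 was at 286 and 240.5 TPM in EGC 7 and 9, and at 165, 160 and 140.1 TPM in EGC 4 to 6. The XX libraries were both far above the XY libraries, and the log2 fold change was 0.76 ± 0.11 (SE, adjusted p = 0.000118). Mrpl20, whose bacterial relative is an early assembly protein of the large subunit, was at 98.7 and 89.8 TPM in XX EGC and at 57.9, 52.6 and 57.6 TPM in XY EGC. Its log2 fold change was 0.74 ± 0.11 (adjusted p = 0.000101), again without overlap. Mrpl14 (uL14m, at the face where the subunits meet) was at 53.4 and 44.8 TPM in XX EGC and at 31.62, 27.996 and 29.985 TPM in XY EGC, a log2 fold change of 0.69 ± 0.14 (adjusted p = 0.00132).

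Mrpl55 (bL31m) had the largest difference, at 41.5 and 36.9 TPM in XX EGC and 26.5, 21.5 and 19.1 TPM in XY EGC. Its log2 fold change was 0.79 ± 0.16 (adjusted p = 0.00147). Mrpl16 (uL16m, which lies near the peptidyl transferase centre in bacteria) was at 38.6 TPM in both XX libraries and at 26.3, 24.3 and 22.8 TPM in XY EGC, a log2 fold change of 0.64 ± 0.11 (adjusted p = 0.000316). All 5 genes with the largest rise were large subunit genes with bacterial relatives. The small subunit genes with the largest rise were Mrps24 (uS3m, at the mRNA entry in bacteria) with 0.64, Mrps34 (mS34, which binds the small ribosomal RNA) with 0.57, and Mrps22 (mS22) with 0.54. Mrpl12 (bL12m), the stalk protein that recruits translation factors, rose by 0.48 ± 0.11 (adjusted p = 0.00323).

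Of the 5 genes that were lower in XX EGC, Mrpl23 had the largest difference. Mrpl23 was at 7.30 and 6.04 TPM in XX EGC and at 12.01, 10.10 and 11.32 TPM in XY EGC, a log2 fold change of -0.67 ± 0.14 (adjusted p = 0.00136). Mrps10 (uS10m) was at 82.8 and 80.6 TPM against 97.0, 95.7 and 94.9 TPM, with a log2 fold change of -0.23 ± 0.06 (adjusted p = 0.00464). Mrpl24, whose bacterial relative starts assembly of the large subunit, was at 177 and 173 TPM against 202, 202 and 201 TPM, with -0.20 ± 0.06 (adjusted p = 0.0109). Mrpl9 (bL9m) and Mrpl11 (uL11m, at the base of the stalk) fell by 0.20 and 0.19 on the log2 scale. For Mrps10 and Mrpl24 the XY libraries were close together, and both XX libraries lay below them.

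Since XX EGC had 2 libraries, the counts leaned on each of them. Without EGC 7, 17 genes were higher and 3 lower. Without EGC 9 the counts were 24 and 2, and without EGC 4 the lower count was 3. The call of Mrpl11 was lost without EGC 1, 2, 4, 6, 7, 9 or ESC 1, 2 or 4 and under quantile normalization, that of Mrpl9 without EGC 4, 5, 7 or 9, and that of Mrpl24 without EGC 9, with adjusted p up to 0.219, 0.155 and 0.0803. Markers of other states moved with this contrast as well. Summed markers of pluripotent cells were 12504 and 13854 TPM in XX EGC and 10064 to 11347 TPM in E11.5 XY EGC. Of the 6 markers 2 were higher, Nanog and Zfp42. Most of each pluripotent marker sum, here and below, was the single gene Dppa5a. Summed later germ cell markers were 128 and 144 TPM against 226 to 229 TPM, with 1 of 5 higher and 3 lower. Of 7 tested fibroblast markers 1 was higher, with sums of 143 and 156 TPM against 101 to 155 TPM. The part of these cell states in the mitoribosomal differences was not tested.

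**Figure D4:**
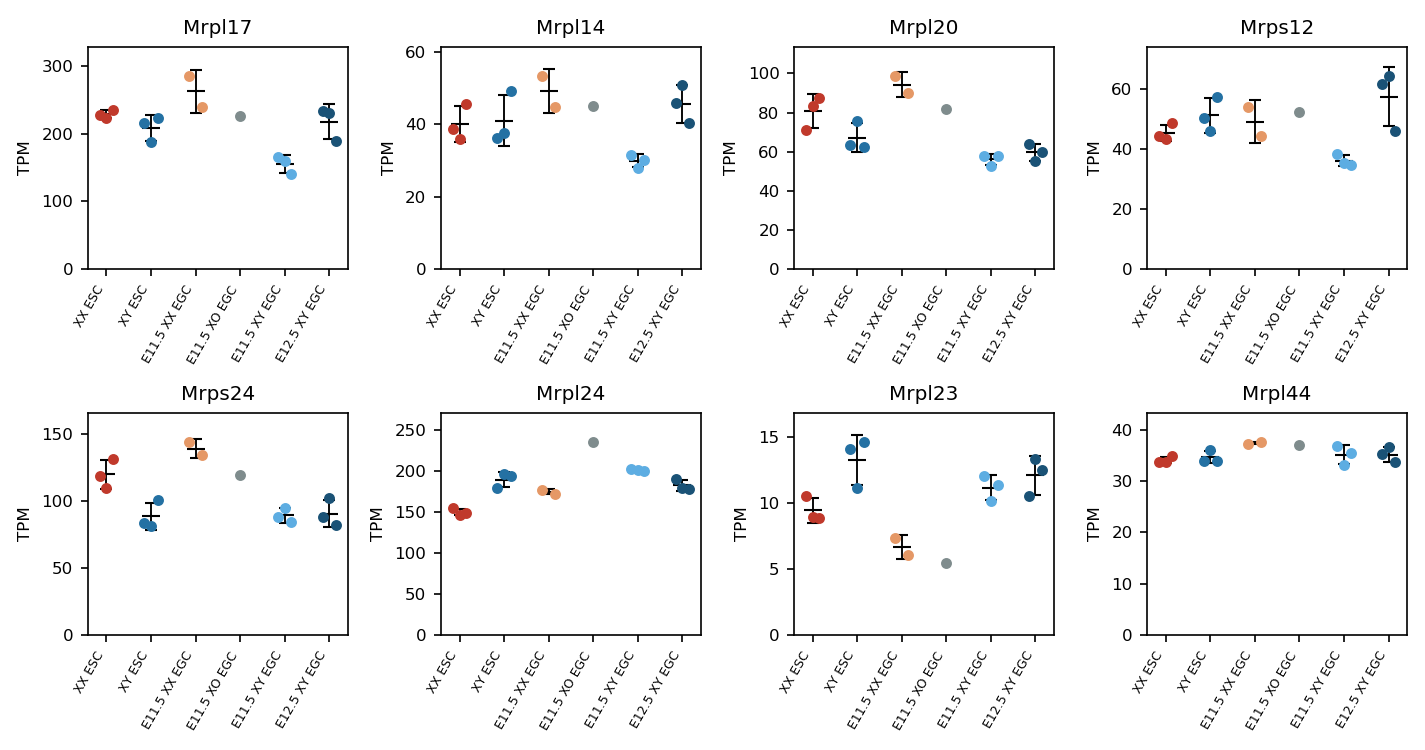
Levels in TPM (vertical axes, from 0) of 8 genes by header label. Points are libraries, and bars show the mean and SD where a label has more than 1 library. Mrpl17, Mrpl14, Mrpl20 and Mrps24 are higher in E11.5 XX EGC than in E11.5 XY EGC, Mrpl24 and Mrpl23 lower, Mrps12 is lowest in E11.5 XY EGC, and Mrpl44 stays between 33.1 and 37.6 TPM.

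The single XO library, EGC 8, is given as values without a test. Of the 31 genes that rose in E11.5 XX EGC, 27 (87.1%) were nearer to the XX than to the XY mean in the XO library, and 30 were above all 3 E11.5 XY libraries. The exceptions were Mrpl22, Mrpl16, Mrps9 and Mrps6. Among autosomal genes that rose, 1679 of 3114 (53.9%) were nearer to XX, and among X-linked genes 26 of 463 (5.62%). Above all 3 E11.5 XY libraries were 2226 of these 3114 autosomal genes and 146 of these 463 X-linked genes. Mrpl17 was at 227 TPM in XO, Mrpl20 at 81.8 TPM and Mrpl14 at 45.1 TPM, all closer to the lower XX library than to any E11.5 XY library. Of the 5 genes that were lower in XX, 2 were nearer to XX in XO, beside 1655 of 3181 autosomal genes that were lower (52.0%). Mrpl23 was lowest of all libraries there, at 5.46 TPM, whereas Mrpl24 was highest of all libraries, at 235.7 TPM.

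XX and XY ESC differed in 18 of the 76 genes, with more falling than rising. In XX ESC 7 genes were higher (9.21%) and 11 lower (14.5%), while over all tested genes 27.3% were higher and 19.3% lower. The median log2 fold change was -0.01 for the 76 genes and 0.05 for all tested genes. Large subunit genes gave 3 higher and 9 lower calls, small subunit genes 4 and 2, and all 7 genes that rose have bacterial counterparts. Median-ratio scaling gave 5 higher and 17 lower, beside 24.2% and 23.7% of all tested genes. Quantile normalization gave 6 and 18, beside 22.1% and 26.1%, so the lower count depended on the scaling. Without ESC 3 the counts were 6 and 13.

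Mrps24 rose most, with 118, 109.7 and 132 TPM in ESC 1 to 3 and 83.6, 81.5 and 100.5 TPM in ESC 4 to 6. The ranges did not overlap, and the log2 fold change was 0.44 ± 0.10 (adjusted p = 0.00298). Mrps2 (uS2m) was at 76.8, 77.9 and 77.1 TPM against 59.7, 64.9 and 63.1 TPM, a log2 fold change of 0.30 ± 0.06 (adjusted p = 0.000715). Mrps15 (uS15m, which binds the small ribosomal RNA early in bacterial assembly) rose by 0.32 ± 0.06 (adjusted p = 0.00114) and Mrpl16 by 0.34 ± 0.10 (adjusted p = 0.0109). Mrpl20 rose by 0.26 ± 0.10 (adjusted p = 0.0368) with overlapping ranges, and its call was lost under both rescalings, without the filter and without ESC 2, 3, 4 or 6, with adjusted p up to 0.130. The call of Mrpl16 was lost without ESC 6 (adjusted p = 0.0533). Mrpl3 (uL3m) and Mrps9 (uS9m) were the other genes that rose.

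Mrpl24 was at 155, 147 and 149 TPM in ESC 1 to 3, below 179, 196 and 194 TPM in ESC 4 to 6. Its log2 fold change was -0.33 ± 0.05 (adjusted p = 0.000184), the smallest adjusted p of the 76 genes in this comparison. Mrpl38 (mL38) was at 46.1, 46.3 and 49.6 TPM against 59.5, 59.8 and 69.4 TPM, a log2 fold change of -0.40 ± 0.07 (adjusted p = 0.000535). Mrpl2 (uL2m, beside the peptidyl transferase centre in bacteria) was at 79.1, 69.1 and 80.6 TPM against 94.0, 94.3 and 107 TPM, with -0.37 ± 0.09 (adjusted p = 0.00511). In all 3 genes the XX libraries were below every XY library. Mrpl23 had a log2 fold change of -0.45 ± 0.12 (adjusted p = 0.00887) and Mrpl49 (mL49) of -0.32 ± 0.07 (adjusted p = 0.00213). Mrpl54, Mrps10, Mrpl11, Mrpl18, Mrps21 and Mrpl28 fell by 0.19 to 0.30. Beside these calls, 4 of 6 pluripotent cell markers were higher, with sums of 14033 to 14618 TPM in XX ESC and 8572 to 8962 TPM in XY ESC. Of the cytosolic ribosomal protein genes 49 of 79 tested were lower. The relation of either to the mitoribosomal calls was not tested.

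The ESC and EGC contrasts of XX and XY compare separate libraries, but their calls come from the same fit with a shared spread. Leaving out an ESC library could therefore change the E11.5 EGC calls. The overlap of the calls is thus not an independent replication. The 7 genes higher in XX ESC were all higher in E11.5 XX EGC as well, which is 100% of the ESC list and 22.6% of the EGC list. For all autosomal genes the shares were 55.9% and 57.5%. Of the 11 genes lower in XX ESC, Mrpl11, Mrpl23, Mrpl24 and Mrps10 were also lower in XX EGC (36.4% and 80.0%, against 63.1% and 52.2% for autosomal genes). No member was called in opposite directions. Among autosomal genes, 119 of the 3201 higher in XX ESC and 49 of the 2633 lower in XX ESC were. With shares this low, finding none among so few members is no contrast to the background.

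**Figure D5:**
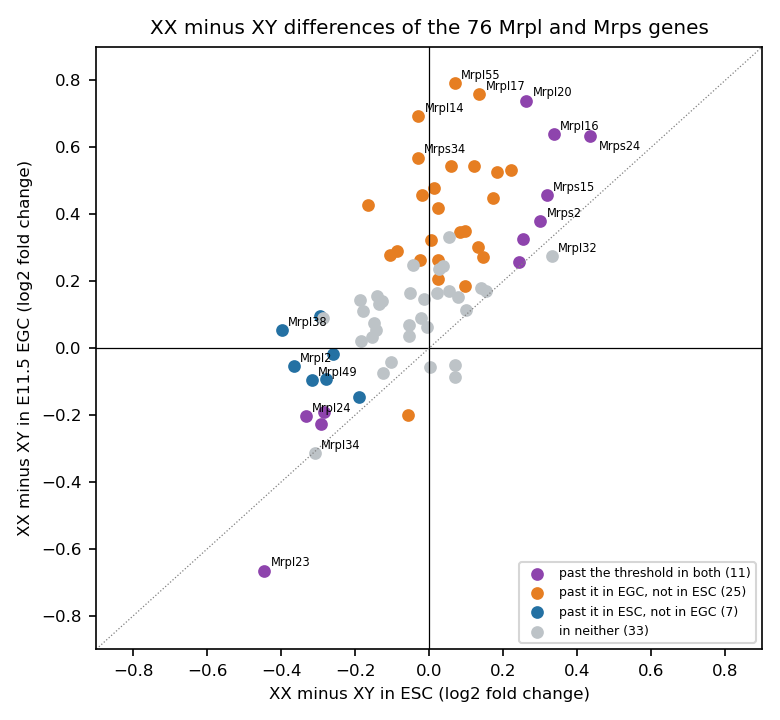
Log2 fold change of XX over XY for each of the 76 genes in ESC (horizontal axis) and in E11.5 EGC (vertical axis). Colours give the calls in the 2 comparisons, which share no library but come from the same fit with a shared spread. The dotted line marks equal differences. Most points lie above that line, with Mrpl55, Mrpl17, Mrpl14 and Mrps34 far above it and near 0 in ESC.

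The difference between the contrasts was itself tested as an interaction. The XX minus XY effect was greater in E11.5 EGC than in ESC for 12 genes (15.8%) and smaller for 0. Over all tested genes 6.08% were greater and 9.51% smaller. The mean of E12.5 XY EGC was not part of this contrast. With an unadjusted p below 0.05, 23 were greater and 0 smaller, beside 13.7% and 19.1% of all tested genes. The median interaction was 0.21 on the log2 scale for the 76 genes and -0.04 for all tested genes, and 69 of the 76 were positive. The largest were Mrpl14 with 0.72 ± 0.19 (adjusted p = 0.0243), Mrpl55 with 0.72 ± 0.22 (adjusted p = 0.0421), Mrpl17 with 0.62 ± 0.15 (adjusted p = 0.0169), Mrps34 with 0.60 ± 0.17 (adjusted p = 0.0338) and Mrps12 with 0.59 ± 0.18 (adjusted p = 0.0438). In ESC the ranges of Mrpl14 overlapped, with XX libraries at 38.7, 35.8 and 45.5 TPM and XY libraries at 36.3, 37.6 and 49.3 TPM. The other called genes were Mrpl20, Mrpl22, Mrpl38, Mrpl40, Mrpl41, Mrpl43 and Mrps22. Of the 12, Mrpl14, Mrpl17, Mrpl38, Mrpl40, Mrps12 and Mrps34 were also called higher in E12.5 than in E11.5 XY EGC. The others were called in neither direction there. Both contrasts subtract the E11.5 XY EGC mean, so a low value there raises both, and the overlap adds no support. Its share over all tested genes was not computed.

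These interaction calls depended strongly on single libraries. The count was 19 without ESC 3, 1 without EGC 7, 2 without EGC 5, ESC 1 or ESC 2, 5 without EGC 6 or ESC 6, and 6 without EGC 9. It was 1 when genes of low level were kept in the fit. Over these alternatives the adjusted p of the 5 largest reached 0.0971 for Mrpl17, 0.122 for Mrpl14, 0.157 for Mrps34, 0.162 for Mrpl55 and 0.204 for Mrps12, and all 5 stayed positive.

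Between the stages, E12.5 and E11.5 XY EGC differed in 21 of the 76 genes. In E12.5 cells 15 were higher (19.7%) and 6 lower (7.89%), while over all tested genes 26.3% were higher and 11.4% lower. The median log2 fold change was 0.05 for the 76 genes and 0.10 for all tested genes. This balance depended on the scaling. Median-ratio scaling, which moved the median of all genes from 0.10 to 0.00, gave 8 higher and 16 lower, beside 17.6% and 19.5% of all tested genes. Quantile normalization gave 12 and 13, beside 18.2% and 17.9%. Rescaling without the mitochondrially encoded genes gave 14 and 11, beside 23.8% and 12.7%. Without EGC 3 or without EGC 4 the lower count was 3, and without ESC 3 the counts were 18 and 8.

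Mrps12 (uS12m, at the decoding centre) was at 61.7, 64.5 and 46.2 TPM in EGC 1 to 3 and at 38.4, 35.4 and 34.9 TPM in EGC 4 to 6. The E12.5 libraries were all higher, and the log2 fold change was 0.64 ± 0.12 (adjusted p = 0.00157). Mrpl14 was at 45.9, 50.8 and 40.3 TPM at E12.5, against 27.996 to 31.62 TPM at E11.5, with 0.59 ± 0.13 (adjusted p = 0.00312). Mrpl17 was at 234, 232 and 189 TPM, against 140.1 to 165 TPM, with 0.49 ± 0.10 (adjusted p = 0.00241). Mrps18b (mS40) rose by 0.48 ± 0.09 (adjusted p = 0.00141) and Mrpl54 (mL54) by 0.41 ± 0.10 (adjusted p = 0.00744), the latter not past the threshold under median-ratio scaling (adjusted p = 0.0569). The level of Mrps12, Mrpl14 and Mrpl17 in E11.5 XY EGC was below that of every other library of the series, ESC included.

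Mrpl13 (uL13m) was at 73.9, 81.2 and 74.5 TPM at E12.5 and at 107.8, 105.2 and 92.6 TPM at E11.5. It was lower in every E12.5 library, with a log2 fold change of -0.41 ± 0.07 (adjusted p = 0.000956). Mrpl50 (mL50) had -0.33 ± 0.08 (adjusted p = 0.00471) and Mrps9 -0.29 ± 0.06 (adjusted p = 0.00397). Mrps14 (uS14m) had -0.23 ± 0.07 (adjusted p = 0.0219), not past the threshold without EGC 2, 3 or 4. Mrpl18 (uL18m) had -0.20 ± 0.07 (adjusted p = 0.0440), not past it without EGC 1, 2, 3, 4 or 6 or ESC 2 or without the filter. Mitochondrially encoded transcripts took 4.99% to 5.61% of TPM at E12.5 and 6.70% to 7.85% at E11.5, and of 7 tested fibroblast markers Col3a1 and Postn were lower at E12.5, with sums of 120 to 178 TPM against 101 to 155 TPM. Of 6 pluripotent cell markers 1 was higher (Esrrb) and 2 lower (Dppa5a and Nanog) at E12.5. Their sums were 7117 to 8395 TPM against 10064 to 11347 TPM, most of it Dppa5a, with means of 5594.5 and 8449 TPM. Of 5 later germ cell markers 1 was higher and 2 lower, with sums of 131 to 205 TPM against 226 to 229 TPM. The part of these in the calls was not tested, apart from the rescaling above.

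EGC and ESC of the same karyotype differed in few of the genes. Between XY EGC of both stages and XY ESC 0 genes were higher and 3 lower (3.95%), while over all tested genes 4.69% were higher and 1.47% lower, and by unadjusted p below 0.05 the counts were 2 and 14, beside 15.9% and 7.18% of all tested genes. Mrpl40 (mL40, in the central protuberance) was at 83.0 to 86.4 TPM at E11.5 and 98.0 to 102.1 TPM at E12.5, below 108, 120 and 105.1 TPM in XY ESC. Its log2 fold change was -0.27 ± 0.06 (adjusted p = 0.0198). Mrpl51 (mL51) had -0.21 ± 0.06 (adjusted p = 0.0436) and Mrpl15 -0.20 ± 0.05 (adjusted p = 0.0401). These calls were fragile, with 0 left without ESC 4 or ESC 5 or without the filter, 1 left without EGC 2, 5, 6, 7 or 9 or ESC 1, 2 or 6, and 5 under median-ratio scaling.

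Between E11.5 XX EGC and XX ESC 10 genes were higher (13.2%) and 1 lower (1.32%), while over all tested genes 4.09% were higher and 8.44% lower. The median log2 fold change was 0.13 for the 76 genes and -0.05 for all tested genes, and 60 of the 76 were positive. Mrpl22 (uL22m, which lines the peptide tunnel in bacteria) was at 96.4 and 94.6 TPM in XX EGC, above 64.4, 69.2 and 76.1 TPM in XX ESC, a log2 fold change of 0.45 ± 0.11 (adjusted p = 0.0174). Mrps34 rose by 0.44 ± 0.13 (adjusted p = 0.0407), Mrps22 by 0.39 ± 0.09 (adjusted p = 0.0128), Mrps21 (bS21m) by 0.39 ± 0.11 (adjusted p = 0.0334) and Mrpl41 (mL41) by 0.38 ± 0.11 (adjusted p = 0.0431). Mrpl23 fell by 0.45 ± 0.14 (adjusted p = 0.0479).

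The higher count between E11.5 XX EGC and XX ESC was 14 without ESC 3, but 0 without EGC 9, 1 without EGC 7 or ESC 1, and 3 without ESC 2 or without the filter. The call of Mrpl23 was lost without EGC 2, 3, 4, 5, 6, 7 or 9, without ESC 1, 2 or 4, without the filter and under every rescaling, with adjusted p up to 0.299. Of 7 tested fibroblast markers, Bgn, Col1a2 and Col1a1 were higher in XX EGC, and the 10 summed to 143 and 156 TPM against 90.8 to 125 TPM in XX ESC. Their part in the differences was not tested. For all 9 EGC against all 6 ESC libraries, in a fit of 12909 genes, 0 of the 76 were higher and 0 lower, and 0.0232% of all tested genes were called in each direction. By unadjusted p below 0.05, 4 were higher and 5 lower, beside 5.17% and 3.84% of all tested genes. The smallest p-values were those of Mrps21 (0.28 ± 0.09, adjusted p = 0.364), Mrpl34 (bL34m, 0.33 ± 0.11, adjusted p = 0.368) and Mrpl15 (-0.18 ± 0.07, adjusted p = 0.450), none past the threshold.

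The level of Mrpl23, the gene with the widest spread, is uncertain because a near-identical copy is expressed in the table. Mrpl23 lies on the plus strand of chromosome 7 at 142532686 to 142540747 (GRCm38), and its protein uL23m sits at the exit of the peptide tunnel in bacteria. The pseudogene Mrpl23-ps1 on chromosome 2 matches its transcript over 507 bases (68.9% of the transcript) with 100% identity, so reads could be split between them. Mrpl23-ps1 was listed at 90.03 to 174 TPM, above the 5.46 to 14.6 TPM of Mrpl23 in every library. The copy differed in the same direction, with log2 fold changes of -0.66 ± 0.09 (adjusted p = 7.201e-05) for XX minus XY in ESC and -0.54 ± 0.10 (adjusted p = 0.0008015) in E11.5 EGC. Between XX EGC and XX ESC it did not pass the test (-0.04 ± 0.10, adjusted p = 0.825).

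Summed over the gene and its copy, levels were 96.9 and 99.7 TPM in E11.5 XX EGC, 98.9 to 111 TPM in XX ESC and 116 TPM in XO. The sums were 141 to 148 TPM in E11.5 XY EGC, 153 to 187 TPM in E12.5 XY EGC and 145 to 185 TPM in XY ESC. No XX library reached any XY library, and the XO library lay between them. Of the 76 genes 6 have a pseudogene copy with at least 95% identity over at least 50% of the transcript, 4 of these copies are in the table, and the copy of Mrpl23 alone reached 1 TPM in the mean.

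Exons of several members overlap exons of an expressed gene on the other strand. Whether reads were counted by strand is not given in the sources used here, so such reads may not be told apart. Mrpl14 shares 106 bases with Tmem63b (mean 57.7 TPM) and Mrpl24 463 bases with Rrnad1 (11.4 TPM). Mrpl13 shares 330 bases with Mtbp (29.3 TPM) and Mrpl18 124 bases with Tcp1 (659 TPM). Mrps34, at 22.9 to 40.3 TPM, shares 971 bases with Mapk8ip3 (32.3 TPM). On its own strand Mrps34 also shares 289 bases with Nme3 (30.1 TPM), and Mrps24 shares 226 bases with Urgcp (5.27 TPM). Counting by strand would not separate reads of such same-strand overlaps. Among the genes that start within 500 bases of a member, Sars2 rose together with Mrps12 at E12.5, by 0.32 (adjusted p = 0.0206). In E11.5 XX EGC, where Mrps12 rose by 0.43, the log2 fold change of Sars2 was 0.01 (adjusted p = 0.947). Hira rose with Mrpl40 in E11.5 XX EGC, by 0.33 (adjusted p = 0.0190), and Klc4 fell with Mrpl2 in XX ESC, by 0.60 (adjusted p = 0.000311). Helq fell by 0.25 in E11.5 XX EGC (adjusted p = 0.0280), where its neighbour Mrps18c (bS18m) rose by 0.53.

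Mitoribosomal proteins that carry other symbols were tested as a list of 7. The shares of all tested genes that were called are the background for this and the lists below. In E11.5 XX against XY EGC 26.2% were higher and 23.4% lower. In XX against XY ESC the shares were 27.3% and 19.3%, and at E12.5 against E11.5 they were 26.3% and 11.4%. The balance at E12.5 depended on the scaling, and the lists were counted only on the deposited scale. The E11.5 XX EGC and E12.5 contrasts both subtract the E11.5 XY EGC mean. A low value there raises both and a high value lowers both, so a gene that moves alike in both is not a repeated finding. In E11.5 XX EGC 3 were higher and 1 lower than in XY EGC, with Ict1 (mL62, a peptidyl-tRNA hydrolase) up by 0.58, Mrp63 (mL63) by 0.43 and Aurkaip1 (mS38) by 0.39. In XX ESC Chchd1 (mS37) was lower than in XY ESC by 0.38 (log2 fold change -0.38, adjusted p = 0.000918), the 1 call of 7, and at E12.5 Aurkaip1 was the 1 gene higher.

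Other genes of mitochondrial translation moved in both directions. Their lists are short, and the counts are to be read beside the shares of all tested genes given above. Of 16 tested translation factors, 6 were higher and 2 lower in E11.5 XX EGC than in XY EGC, 2 and 3 in XX than in XY ESC, and 5 and 2 at E12.5 than at E11.5. Tufm, the elongation factor that brings tRNAs to the mitoribosome, rose by 0.51 in XX EGC and by 0.58 at E12.5, and Lrpprc, which stabilises mitochondrial mRNAs, rose by 0.51 in XX EGC and by 0.37 in XX ESC. Of 26 tested assembly factors, 8 were higher and 4 lower in XX EGC, 3 and 5 in XX ESC, and 10 and 1 at E12.5. Ftsj2, which methylates the large ribosomal RNA, rose by 0.85 in XX EGC and 0.63 at E12.5, while Rpusd4, a pseudouridine synthase, fell by 0.39 in XX EGC and 0.43 in XX ESC. Of 21 tested mitochondrial aminoacyl-tRNA synthetases and related enzymes, 4 were higher and 3 lower in XX EGC, 1 and 4 in XX ESC, and 8 and 0 at E12.5. Pars2, which charges the proline tRNA, rose by 0.86 in XX EGC and 1.02 at E12.5, and Qrsl1, which makes glutaminyl-tRNA, fell by 0.68 in XX EGC and 0.52 in XX ESC.

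Among 12 tested regulators of mitochondrial genes, 1 was higher and 3 lower in E11.5 XX EGC, 2 and 1 in XX ESC, and 4 and 4 at E12.5. Nrf1, whose product binds the NRF1 motif, rose in all 3 comparisons, by 0.43, 0.37 and 0.42 (adjusted p = 0.000507, 0.000653 and 0.000584). Gabpa, the DNA-binding subunit of GABP, rose by 0.31 in XX ESC. Tfb2m, a transcription factor of mitochondrial DNA, fell by 0.55 in XX EGC and 0.54 at E12.5. Of 15 mitochondrially encoded RNAs, 0 were higher and 5 lower in XX EGC, 0 and 0 in XX ESC, and 0 and 10 at E12.5, led by mt-Cytb with -0.83 in XX EGC and -0.98 at E12.5. Between XY EGC and XY ESC 6 of them were higher, and 2 between XX EGC and XX ESC, beside 4.69% and 4.09% of all tested genes. Of 11 markers of mitochondrial mass, 6 were higher and 2 lower in XX EGC, 3 and 1 in XX ESC, and 3 and 1 at E12.5. The chaperone gene Hspd1 rose by 1.104 in XX EGC and the import receptor gene Tomm20 fell by 0.54.

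The remaining lists gave the following counts. Of 79 tested cytosolic ribosomal protein genes, 11 were higher and 24 lower in E11.5 XX EGC, and 15 and 14 at E12.5. At E12.5 1 of 6 pluripotent cell markers was higher and 2 were lower, and 1 of 5 later germ cell markers was higher and 2 were lower. In XX ESC 1 of these germ cell markers was higher and 1 lower, 1 of 7 fibroblast markers was higher, and Gata6 was higher among the 2 tested endoderm markers. Afp, a marker of endoderm, was at most 0.124 TPM in every library.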

How the data were processed

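Polyadenylated RNA from 9 EGC and 6 ESC libraries was sequenced as paired ends after TruSeq preparation. The authors deposited 1 table of TPM values. The submitters' processing notes name STAR 2.3.0, HTSeq 0.6.0, edgeR 3.8.6, SAMtools 0.1.18.0 and Picard 1.100, and the build GRCm38 (mm10). Their roles, the annotation and the strand setting are not given in the sources used here. Depth is unknown, so the error given is the spread between libraries.

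TPM were tested as log2(TPM + 1) with limma 3.58.1 (trend, 2-sided) in R 4.3.3, with 1 mean per header label and a shared spread of 9 residual degrees of freedom. Genes needed at least 1 TPM in at least 2 libraries, or in at least 6 for EGC against ESC, which had 2 groups. P-values were adjusted by Benjamini and Hochberg over all genes tested. Fold changes on this scale understate those of low genes. The script was first tested on simulated data. Positions came from GENCODE M21, promoters from RefSeq. Alternatives were a pseudocount of 0.1, no filter, median-ratio scaling, quantile normalization, rescaling without mitochondrially encoded genes, leaving out each library and, for EGC against ESC, header label as a block or karyotype as a factor.

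Members and lists were chosen with earlier results of these data known. Named genes are the up to 5 called members with the largest change in each direction per comparison (the 3 with the smallest p where none was called), the 6 highest, 4 lowest, 4 steadiest and 4 most variable members, and up to 3 called genes per other list. Mrpl12, Mrpl3, Mrps9, Mrps22 and Mrps24 in E11.5 XX EGC and genes named for their position, copies or sequence were added after their values were seen.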

Additional observations from a re-analysis of the deposited data

Results flagged for a closer look

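In groups of 4 to 10 libraries, a value was singled out when its gap to the next was large beside the range of its group, a rule by which chance picks about 1 in 20 groups. Of 152 member groups, 7 held such a value, 5 of them on chromosome 13 in ESC 3. These were Mrps30 with 109.8 TPM, Mrpl36 with 74.32 TPM, Mrps27 with 48.19 TPM, Mrps36 with 119.3 TPM and Mrpl32 with 115.5 TPM. Mrpl13, on chromosome 15, had 99.52 TPM in ESC 3, above the other ESC libraries. Mrpl24 had 235.7 TPM in EGC 8, the XO library, above the other EGC libraries. The cause was not tested.

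The XX minus XY effect differed between E11.5 EGC and ESC for 12 members, by a test of the difference itself. Each had the greater effect in E11.5 EGC. Among those named were Mrpl14 with a difference of 0.72, Mrpl55 with 0.72, Mrpl17 with 0.62, Mrps34 with 0.60 and Mrps12 with 0.59, all on the log2 scale.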

How the results depend on the processing

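Of 946 alternative values of the 47 named member values, 810 kept their direction and side of the threshold, 136 were no longer past it and 0 reversed. Of 44 called named values, 22 were past the threshold under every alternative. Under median-ratio scaling, quantile normalization and rescaling without mitochondrially encoded genes, the lower count was 17, 18 and 11 in XX against XY ESC, and 16, 13 and 11 between the stages. Median-ratio scaling gave 8 higher between the stages and 5 lower between XY EGC and XY ESC. All 3 rescalings gave 0 lower between XX EGC and XX ESC. With no filter on low values, 0 were lower between XY EGC and XY ESC, 3 higher and 0 lower between XX EGC and XX ESC, and 1 interaction was called. Mean summed levels moved from 5353 to 5098 TPM (E12.5 XY EGC) and from 6007 to 6107 TPM (XO) with median-ratio scaling, and without mitochondrially encoded genes to 5655 TPM (E12.5 XY EGC), 5608 TPM (E11.5 XY EGC, from 5206), 6426 TPM (XO), 6339 TPM (E11.5 XX EGC, from 5956) and 5866 TPM (XY ESC, from 5563).

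Leaving out 1 library at a time gave 5 to 8 higher and 8 to 13 lower in XX against XY ESC, 17 to 34 and 2 to 5 in E11.5 XX against XY EGC, 10 to 19 and 3 to 8 between the stages, 0 to 0 and 0 to 4 between XY EGC and XY ESC, 0 to 14 and 0 to 1 between XX EGC and XX ESC, 1 to 19 and 0 to 0 for the interaction, and 0 to 0 in both directions for EGC against ESC. The shares over all tested genes were not counted for these omissions. Where a label keeps 1 library, that library is assumed to vary like the others. Header label as a block or karyotype as a factor also gave 0 calls for EGC against ESC. No paired analysis was possible because the labels give no replicate numbers shared between groups. The unknown depth limits what can be said of low genes such as Mrpl23, and 2 libraries of E11.5 XX EGC limit every contrast that uses them.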

Other observations

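Chosen after its values were seen, Lars2, which charges the mitochondrial leucine tRNA, was at 1172 TPM in EGC 9 and 165 TPM in EGC 7, both E11.5 XX EGC. The mitochondrial ribosomal RNAs differed alike between these libraries, with mt-Rnr1 at 1070 TPM in EGC 9 and 375 TPM in EGC 7 and mt-Rnr2 at 837 and 282 TPM. These RNAs form the core of the mitoribosome. Among neighbours of Mrpl23 on chromosome 7, the imprinted gene H19 was at 371 to 431 TPM in E12.5 XY EGC, 25.2 to 37.1 TPM in E11.5 XY EGC and 9.75 TPM in XO, while Mrpl23 was at 10.5 to 13.3 TPM, 10.10 to 12.01 TPM and 5.46 TPM in these labels.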
